A study of Mus musculus with 6 samples.

Results

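The growth factors of blood and lymphatic vessels were followed in cultured mouse dermal fibroblasts, which make the collagen matrix of skin, after addition of interleukin-1 (IL-1), a cytokine released in injured and inflamed tissue. The 7 genes were Vegfa, Vegfb, Vegfc, Figf (now named Vegfd) and Pgf of the VEGF family, and Angpt1 and Angpt2 of the angiopoietin family. They were taken by name: every non-control probe annotated with 1 of these symbols was used, which gave 11 of the 41174 probes on the array and 7 of its 29185 gene names. Of these, 9 probes of 6 genes had measurable signal, and both Angpt1 probes did not.

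IL-1-treated cells had received 20 ng/ml IL-1 for 1, 2 or 4 h, and untreated cells (0 h) none; both came from C57BL/6 mice and grew in the same serum-containing medium. The labels give neither the form of IL-1 nor the age of the mice. Each of the 6 two-colour arrays carried RNA of treated cells in one dye and RNA of untreated cells in the other, and the 2 arrays of a time point held the same RNAs with the dyes exchanged. The 2 arrays therefore counted as 1 sample per time point, and the distance between them is technical error. Separate cultures for the 3 time points are not stated, so the spread between these 3 samples may be technical. The p-values rest on that spread, which limma draws for each probe towards the spread of all probes. They leave out the spread of untreated cells.

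Values are log2 ratios of IL-1-treated over untreated cells, so that 1 is a 2-fold higher and -1 a 2-fold lower signal. The direction rests on the dyes named in the labels. In that direction the chemokine gene Cxcl1 stood at 6.21, 5.49 and 4.84 after 1, 2 and 4 h, Nfkbia, the gene of the NF-kB inhibitor, at 3.02, 2.65 and 1.87, and Il6 at 2.51, 2.96 and 2.73. Each column of the deposited value table equals the ratio of the opposite array of its time pair. If the scanner files and not the table columns were exchanged, every sign given here would turn.

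Ligands of the VEGF family are secreted dimers that act on receptor tyrosine kinases of endothelial cells. VEGF-A is the main growth and permeability factor of blood vessels through Kdr and Flt1, PlGF and VEGF-B bind Flt1, and VEGF-C and VEGF-D drive lymphatic growth through Flt4. Angiopoietin-1 activates the receptor Tek and steadies vessels, whereas angiopoietin-2 mostly opposes it, and fibroblasts of the skin are one source of such ligands during wound repair.

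The 250 bases upstream of the annotated starts, from RefSeq on GRCm38.p6, could be read for 5 of the 7 genes in 7 windows; Angpt1 and Angpt2 had no entry. The windows of Vegfa, Vegfc and Pgf are shown because these 3 genes rose after IL-1, and that of Vegfb because it was not called. All are written 5′ to 3′ on the strand of the gene, and capitals mark matches to any motif searched. They lie at chr17:46032378-46032627 on the minus strand for Vegfa, chr8:54077282-54077531 on the plus strand for Vegfc, chr12:85177314-85177563 on the minus strand for Pgf and chr19:6987652-6987901 on the minus strand for Vegfb.
Vegfa: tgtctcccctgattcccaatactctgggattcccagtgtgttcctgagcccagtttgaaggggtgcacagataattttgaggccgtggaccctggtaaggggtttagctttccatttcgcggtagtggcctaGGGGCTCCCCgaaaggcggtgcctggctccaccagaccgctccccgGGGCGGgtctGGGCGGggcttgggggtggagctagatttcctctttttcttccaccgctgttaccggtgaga
Vegfc: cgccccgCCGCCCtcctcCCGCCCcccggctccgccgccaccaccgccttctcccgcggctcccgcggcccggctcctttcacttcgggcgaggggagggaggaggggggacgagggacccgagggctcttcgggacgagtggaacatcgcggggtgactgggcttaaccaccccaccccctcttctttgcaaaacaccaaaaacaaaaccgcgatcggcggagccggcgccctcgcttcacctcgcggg
Pgf: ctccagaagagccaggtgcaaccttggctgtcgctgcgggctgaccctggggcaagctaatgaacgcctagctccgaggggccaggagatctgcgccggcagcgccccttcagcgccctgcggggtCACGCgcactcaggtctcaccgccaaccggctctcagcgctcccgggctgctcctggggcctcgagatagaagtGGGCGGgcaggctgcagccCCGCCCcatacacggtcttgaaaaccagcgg
Vegfb: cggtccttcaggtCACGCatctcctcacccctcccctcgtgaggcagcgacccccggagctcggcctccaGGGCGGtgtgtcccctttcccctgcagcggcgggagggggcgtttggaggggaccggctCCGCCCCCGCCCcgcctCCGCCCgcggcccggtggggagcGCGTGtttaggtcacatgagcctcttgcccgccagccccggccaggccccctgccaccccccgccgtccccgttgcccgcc

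Both strands were searched for the NF-kB consensus, the AP-1 motif TGANTCA, the hypoxia response cores ACGTG and GCGTG, and the GC box GGGCGG. The Vegfa window held 1 match to the NF-kB consensus, whose nearest end lay 109 bases upstream of the start, and 2 GC boxes. Among all 32851 windows of this length, 7.25% held the NF-kB consensus and 32.7% a GC box. The Vegfc window held 2 GC boxes and no match to the other motifs. The Pgf window held 1 GCGTG core and 2 GC boxes, and the Vegfb window 2 GCGTG cores and 4 GC boxes, 2 of which lie next to each other; GCGTG was in 28.2% of all windows. A further Vegfa window, at chr17:46025164-46025413 upstream of an internal start, held 1 ACGTG and 1 GCGTG core that lie 2 bases apart and 1 GC box, and ACGTG was in 16.6% of all windows. The other Pgf window and that of Figf held none of the 5 motifs, and TGANTCA, present in 6.75% of all windows, was in none of the 7. These are matches of letters and not measured sites.

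Vegfa, the main angiogenic ligand, was higher in IL-1-treated cells from the first time measured, and all 3 of its probes showed this. The probe coordinates below are those of the array files, for which no source used here gives the genome build, so no exon or UTR was assigned. Probe A_51_P482552 (chr17:43528485-43528544, minus strand) read 0.83 and 1.03 at 1 h, then 0.79 and 1.06 at 2 h, then 0.61 and 0.72 at 4 h, with the IL-1 RNA first in Cy5 and then in Cy3. All 6 arrays were above 0, and the 4 h arrays were the lowest in each orientation. Averaged over the dye swap, the signal was 1.90-fold higher at 1 h, 1.90-fold at 2 h and 1.59-fold at 4 h. Probe A_52_P249424 (chr17:43535349-43535408, minus strand) read 0.79 and 0.66 at 1 h, then 0.92 and 0.52 at 2 h, then 0.60 and 0.43 at 4 h. Probe A_52_P638895 (chr17:43527360-43527419, minus strand), the brightest of the 3, read 1.17 and 0.80 at 1 h, then 0.94 and 0.58 at 2 h, then 0.77 and 0.34 at 4 h. Both were above 0 on all 6 arrays and lowest at 4 h, and both read higher with the IL-1 RNA in Cy5, whereas A_51_P482552 read higher with it in Cy3.

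Over the 3 time points the mean log2 ratio was 0.84 ± 0.053 for A_51_P482552, 0.65 ± 0.045 for A_52_P249424 and 0.77 ± 0.073 for A_52_P638895 (SE, n = 3 time points), with limma adjusted p = 0.000643, 0.000849 and 0.00193. These are mean rises of 1.79-fold, 1.57-fold and 1.70-fold, which rank 60, 92 and 68 among the 30577 kept probes. In bulk RNA, more cells of a type and more RNA per cell cannot be told apart. The decline over time passed the slope test for A_52_P638895 alone, with -0.21 ± 0.028 per doubling of time (SE, limma adjusted p = 0.0382), and its 4 h array was lower than its 1 h array by the same sign in both orientations, -0.39 in Cy5 and -0.46 in Cy3. The slopes of A_51_P482552 (-0.13) and A_52_P249424 (-0.11) had limma adjusted p = 0.315 and 0.359. The decline of A_52_P638895 was not called with the scanner's processed signals (limma adjusted p = 0.533), with offset 16 (0.480) or with a trended and robust variance (0.420), nor without replicate 1 (0.119) or replicate 2 (0.241), the Cy5 and Cy3 orientations of the IL-1 RNA.

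**Figure D1:**
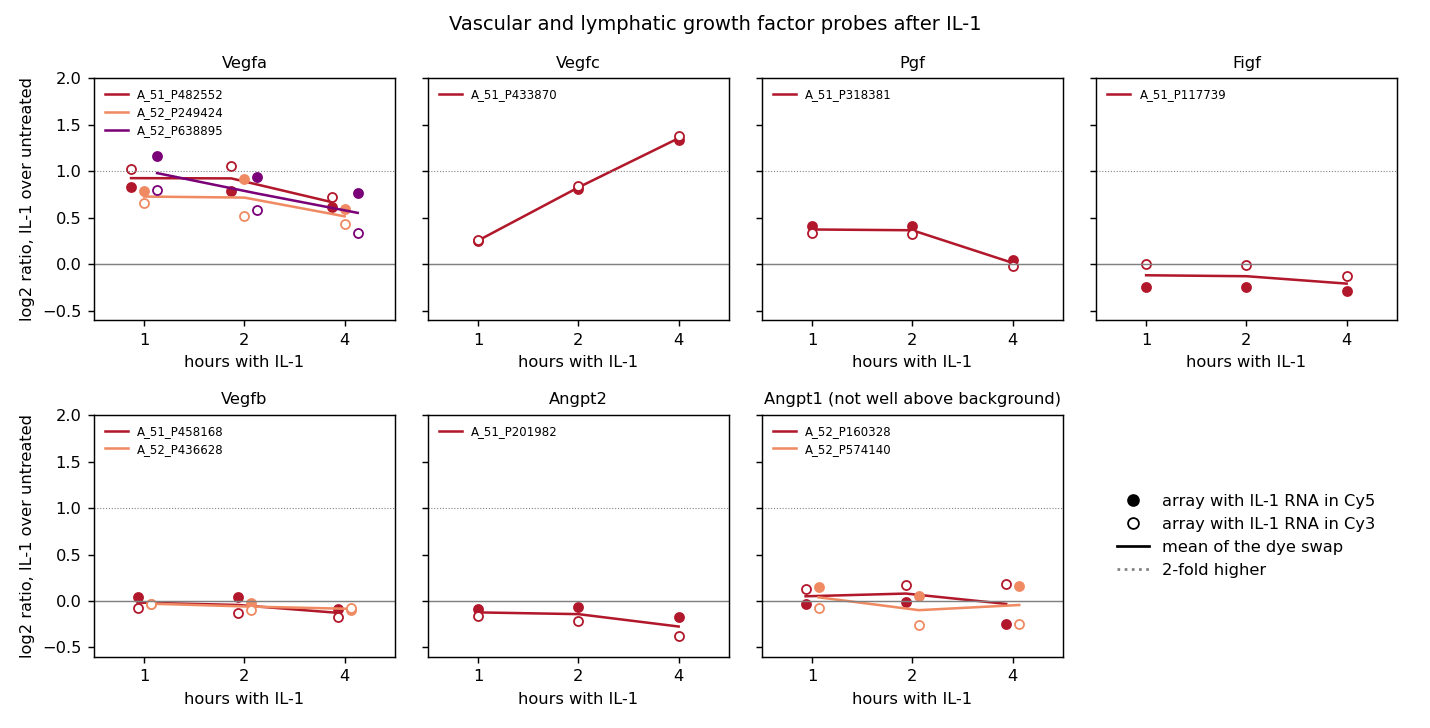
Log2 ratio of IL-1-treated over untreated cells (y axis) against hours with IL-1 (x axis, doubling steps) for the 11 probes, with filled points for arrays that had the IL-1 RNA in Cy5, open points for Cy3 and lines for the mean of the dye swap. Vegfc climbs to 1.36 at 4 h, the 3 Vegfa probes lie between 0.52 and 0.98 at all times, and Pgf is near 0 at 4 h.

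Vegfc, the lymphatic growth factor, rose later and without a plateau within 4 h. Its single probe, A_51_P433870 (chr8:53150836-53150895, plus strand), read 0.25 and 0.26 at 1 h, then 0.81 and 0.84 at 2 h, then 1.33 and 1.38 at 4 h, with the IL-1 RNA in Cy5 and in Cy3. The time points did not overlap, and the 2 orientations of each lay closer together than those of any Vegfa probe. The signal was 1.19-fold higher at 1 h, 1.77-fold at 2 h and 2.56-fold at 4 h. Measured mean signals spanned 517 to 2694 in the IL-1 channel and 485 to 1032 in the untreated channel of the 6 arrays.

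Each doubling of time added about the same amount to Vegfc. Between 1 and 2 h the ratio gained 0.56 in Cy5 and 0.58 in Cy3, and between 2 and 4 h it gained 0.52 and 0.54. The slope was 0.55 ± 0.028 per doubling (SE, limma adjusted p = 0.00194), which ranks 2 among the rising slopes of all kept probes. The mean over the 3 times was 0.81 ± 0.18, or 1.76-fold (SE, n = 3 time points, limma adjusted p = 0.0236). The slope had limma adjusted p = 0.533 with the scanner's processed signals, 0.249 with offset 16 and 0.103 with a trended and robust variance, at sizes between 0.54 and 0.58 in every setting run. The mean was not called without the 2 h sample (0.81, limma adjusted p = 0.110), with processed signals (0.88, 0.104) or with offset 16 (0.85, 0.0560), and it was 0.54 without the 4 h sample (0.0382).

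Set beside each other, the ratios of the lymphatic and the blood vessel ligand changed places: at 1 h the 3 Vegfa probes stood between 0.73 and 0.98 and Vegfc at 0.26, and at 4 h Vegfa stood between 0.52 and 0.67 and Vegfc at 1.36. Within each orientation the 4 h array minus the 1 h array was 1.09 and 1.12 for Vegfc. The difference between the 2 genes' slopes was not tested.

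Pgf, which encodes placental growth factor, a ligand of Flt1, showed a smaller and shorter rise. Its probe A_51_P318381 (chr12:82036080-82038082, minus strand) read 0.42 and 0.33 at 1 h, then 0.41 and 0.32 at 2 h, then 0.04 and -0.01 at 4 h. The 1 h and 2 h arrays did not overlap with the 4 h arrays, where the ratio was back near 0. The signal was 1.30-fold higher at 1 h, 1.29-fold at 2 h and 1.01-fold at 4 h. Between 2 and 4 h it fell by 0.36 in Cy5 and by 0.34 in Cy3. The mean of 0.25 ± 0.070 only just passed (SE, n = 3 time points, limma adjusted p = 0.0487). The slope of -0.18 did not (limma adjusted p = 0.233). With median centring the slope was -0.19 and was called (limma adjusted p = 0.00566). All member slopes had the same SE of 0.046 in that setting, so a probe's own spread did not enter. The mean was called in 7 of 14 other settings, ranging between 0.19 and 0.42. It was not called with processed signals (0.42, limma adjusted p = 0.118) or offset 16 (0.33, 0.0913). The probe was dim, at 146 to 269 in the IL-1 channel and 147 to 214 in the untreated channel. Negative control medians reached 104.4 in Cy3. Processed signals gave larger Pgf ratios of 0.58, 0.61 and 0.08 at 1, 2 and 4 h. The call was lost without the 1 h sample (0.19, limma adjusted p = 0.104) without the 2 h sample (0.20, 0.231) and without replicate 1 (0.21, 0.0529), and without the 4 h sample the mean was 0.37 (0.00234).

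Vegfb, a ligand of Flt1 linked to lipid handling more than to vessel sprouting, was not called by either probe. Probe A_51_P458168 (chr19:6696319-6696378, minus strand) read 0.04 and -0.08 at 1 h, then 0.04 and -0.12 at 2 h, then -0.08 and -0.17 at 4 h. Probe A_52_P436628 (chr19:6696604-6696663, minus strand) read -0.03 and -0.03 at 1 h, then -0.02 and -0.10 at 2 h, then -0.09 and -0.08 at 4 h. Their means were -0.06 ± 0.029 and -0.06 ± 0.024 (SE, n = 3 time points, limma adjusted p = 0.189 and 0.145), and their measured signals reached 1310 in IL-1-treated and 1344 in untreated cells for the brighter one. Median centring called both lower, with means of -0.19 and -0.14 (limma adjusted p = 0.00304 and 0.00778). That setting called 7452 of all 30577 kept probes lower and 1680 higher. Without replicate 1, A_51_P458168 was called at -0.12 (limma adjusted p = 0.0343), where 5901 of all kept probes were called lower. Without replicate 2 its mean was -0.00072 and not called.

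Figf, which encodes VEGF-D, a second lymphatic ligand of Flt4, stood slightly below untreated cells. Its probe A_51_P117739 (chrX:158001869-158001928, plus strand) read -0.24 and 0.01 at 1 h, then -0.25 and -0.01 at 2 h, then -0.29 and -0.13 at 4 h. The lower value came each time with the IL-1 RNA in Cy5, and with it in Cy3 the 1 h and 2 h arrays were at 0 within 0.01. The mean fell by 0.15 ± 0.027 (SE, n = 3 time points, limma adjusted p = 0.0125), but without replicate 1, the Cy5 orientation, it was -0.04 (limma adjusted p = 0.408), and without replicate 2 it was -0.26 (0.00181).

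Angpt2, the antagonist angiopoietin, was also slightly lower. Probe A_51_P201982 (chr8:18636459-18636518, minus strand) read -0.09 and -0.16 at 1 h, then -0.07 and -0.21 at 2 h, then -0.18 and -0.37 at 4 h. All 6 arrays were below 0, with the 4 h arrays lowest in each orientation. The probe was dim, at 128 to 204 in the IL-1 channel and 150 to 221 in the untreated channel. Processed signals gave -0.50 at 4 h, against -0.27 with the settings used in the text. The mean fell by 0.18 ± 0.035 (SE, n = 3 time points, limma adjusted p = 0.0156), and the slope of -0.08 was not called (limma adjusted p = 0.457). The scanner's processed signals gave a mean of -0.31 for Angpt2 (limma adjusted p = 0.0850), and leaving out the 2 h sample gave -0.20 (0.0685) for Angpt2 and -0.16 (0.0703) for Figf. Without replicate 2 the Angpt2 mean was -0.11 (limma adjusted p = 0.0413).

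Angpt1, the Tek agonist, was not measurable. Probe A_52_P160328 (chr15:42337849-42337908, minus strand) was marked well above background in 1 of 6 IL-1 channels and 1 of 6 untreated channels, and A_52_P574140 (chr15:42407176-42407235, minus strand) in 2 of 6 and 2 of 6. Their mean signals were 72.9 to 108.8 in IL-1-treated and 71.5 to 106.1 in untreated cells for the first, and 80.3 to 105.4 and 83.7 to 104.7 for the second. The medians of the negative control spots were 96.3 to 104.4 in Cy3 and 68.4 to 74.1 in Cy5, so no fold is given.

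Across the family, 5 of the 9 measured probes, from Vegfa, Vegfc and Pgf, rose in the mean response, against 10.5% of all 30577 kept probes. Another 2, from Figf and Angpt2, fell, against 11.4%. A call alone says little here, since most called means across the array were small: 97.1% were under 0.5 in size. The 3 Vegfa probes and Vegfc exceeded that size, and Pgf, Figf and Angpt2 did not. Of the 9 probes, 1 had a rising slope, against 0.196% of all probes, and 1 a falling slope, against 0.242%. At least 2-fold higher in both orientations were 0 at 1 h (0.17% of all), 0 at 2 h (0.134%) and 1, Vegfc, at 4 h (0.111%), and none was 2-fold lower at 1 h (0.00654%), 2 h (0%) or 4 h (0%). The median over the 9 probes was 0.26, 0.37 and 0.015 at 1, 2 and 4 h, against medians of all probes of 0.0013, 0.00079 and 0.0023. The split of called means over all probes was 3214 higher and 3472 lower with loess, and 1680 higher and 7452 lower with median centring.

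**Figure D2:**
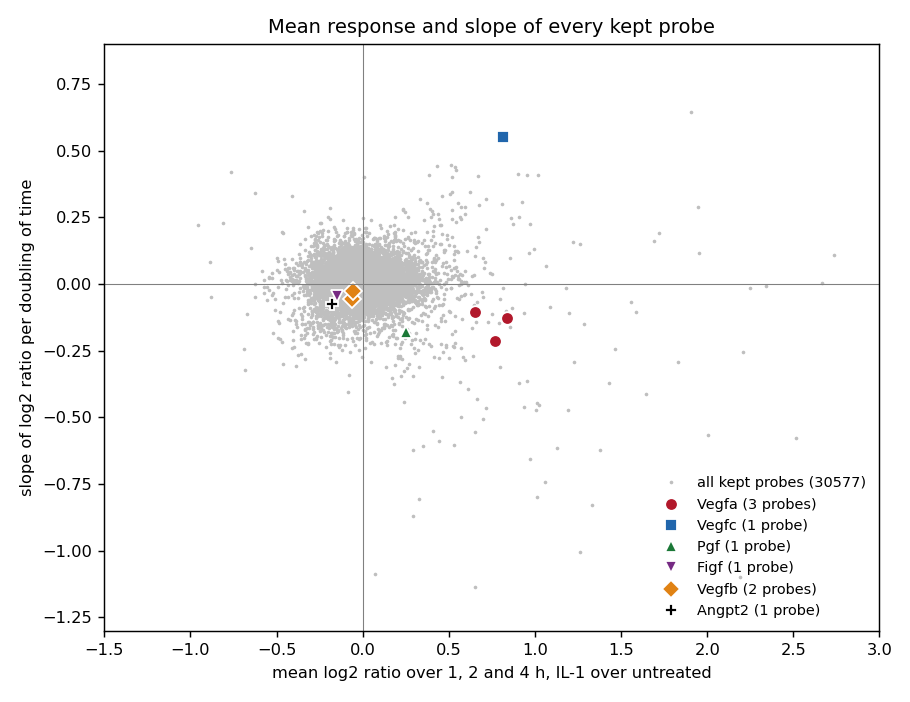
Change of the log2 ratio with each doubling of time (y axis) against the mean log2 ratio over 1, 2 and 4 h, IL-1 over untreated (x axis), for all 30577 kept probes in grey, 3 of which lie outside the axes, and the 9 member probes as symbols. Vegfc lies at a mean of 0.81 and a slope of 0.55, whereas the Vegfa probes have means of 0.65 to 0.84 with slopes below 0.

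Most receptors of these ligands were not called. Of 11 listed receptors and co-receptors, 9 had a kept probe, of which 3 rose and 0 fell, with 6 not called; 10.8% of 22209 genes rose and 11.1% fell when 1 probe stood for a gene. With median centring, 1 of the 9 rose and 2 fell, against 1680 higher and 7452 lower of all 30577 kept probes. The integrin subunit gene Itgb1 had a mean of 0.30, the VEGF-C co-receptor gene Nrp2 0.22 and Flt1 0.12 (limma adjusted p = 0.00332, 0.0103 and 0.0469). Other probes gave smaller or mixed values: those of Itgb1 were at -0.02 and 0.14, that of Nrp2 was at -0.03, and those of Flt1 ran from 0.0036 to 0.35. With median centring Itgb1 was at 0.15 and Nrp2 at 0.06, which was not called (limma adjusted p = 0.295), and the Flt1 value turned to -0.01. Processed signals called Itgb1 (limma adjusted p = 0.0496) but not Nrp2 or Flt1 (0.0734 and 0.134). Kdr (-0.08), Flt4 (-0.04) and Tek (0.02) were not called. The list median was 0.02, and -0.08 with median centring, against 0.0037 for all genes.

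Genes that process, trap or release these ligands moved upward where they were called. Of 15 listed, 13 had a kept probe, with a median of 0.11. Of these, 5 rose, 0 fell and 8 were not called, against 10.8% of all genes higher and 11.1% lower. With median centring 5 rose and 2 fell, against 1680 higher and 7452 lower of all 30577 kept probes. Sdc4, a heparan sulfate proteoglycan that binds growth factors, had a mean of 0.81 (limma adjusted p = 0.000466). The matrix metalloproteinase genes Mmp9 and Mmp3, whose products release matrix-bound VEGF, had means of 0.57 and 0.52 (limma adjusted p = 0.0104 and 0.0262). The scanner's processed signals gave 1.10 for Mmp9 and 0.68 for Mmp3, and neither was called (limma adjusted p = 0.0584 and 0.103). The other probes of Sdc4 and Mmp9 were at 0.46 each. Mmp3 and Mmp9 were also the 2 genes of the list with a rising slope, against 0.239% of all genes. Neither slope was called with processed signals, offset 16 or a trended and robust variance, which called 0 slopes over all probes. Mmp3 went through 0.22, 0.41 and 0.91 after 1, 2 and 4 h, and Mmp9 through 0.30, 0.52 and 0.88, and their slopes had limma adjusted p = 0.0352 and 0.0243. Ccbe1, needed for cleavage of VEGF-C, had a mean of 0.13 and was not called (limma adjusted p = 0.163).

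Vegfa is a classical target of hypoxia-inducible factors. Of 18 listed genes of that pathway, 17 had a kept probe, with a median of 0.06. Of these, 6 rose, 0 fell and 11 were not called, against 10.8% of all genes higher and 11.1% lower. With median centring 3 rose and 3 fell, against 1680 higher and 7452 lower of all 30577 kept probes. The stress-response gene Ndrg1 had a mean of 0.70 and the prolyl hydroxylase gene Egln3 0.45 (limma adjusted p = 0.000317 and 0.00345), and the glucose transporter gene Slc2a1 and the glycolytic gene Pgk1 had 0.19 each (0.0235 and 0.00486). With median centring Slc2a1 was at 0.03 and Pgk1 at 0.0020, and neither was called (limma adjusted p = 0.688 and 0.974). Neither was called with processed signals (limma adjusted p = 0.110 and 0.0589), whereas Ndrg1 and Egln3 were. Hif1a itself (0.06), Ldha (0.04), Adm (-0.03) and Bnip3 (0.01) were not called, and Ldha was called at -0.15 with median centring (limma adjusted p = 0.0165).

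Among 19 other growth factors for vessels, 18 had a kept probe, with a median of -0.01. Of these, 5 rose, 3 fell and 10 were not called, against 10.8% of all genes higher and 11.1% lower. With median centring 5 rose and 8 fell, against 1680 higher and 7452 lower of all 30577 kept probes. Fgf7, a fibroblast-derived factor for keratinocytes, had a mean of 0.44 (limma adjusted p = 0.0140) and stood at 0.18, 0.49 and 0.67 after 1, 2 and 4 h. Its rising slope of 0.24 had limma adjusted p = 0.0352. Pdgfa had a mean of 0.37, Tgfb1 0.29 and Angptl2 0.20 (limma adjusted p = 0.00364, 0.00115 and 0.00592), and the other Angptl2 probes were at -0.01 and 0.07. The ephrin gene Efnb2 had -0.44, Tgfb3 -0.38 and Pdgfd -0.12 (limma adjusted p = 0.00117, 0.0294 and 0.0190), and Tgfb3 had a falling slope of -0.27 (limma adjusted p = 0.0237; 0.293% of genes had a falling slope). The Fgf7 and Tgfb3 slopes were not called with processed signals, offset 16 or a trended and robust variance, which called 0 slopes over all probes. The other Efnb2 probe was at -0.12. With processed signals Fgf7 (0.48), Tgfb3 (-0.39), Pdgfa (0.38) and Angptl2 (0.26) were not called (limma adjusted p = 0.0803, 0.121, 0.0504 and 0.0520). Pdgfd (-0.24) was not called there either (limma adjusted p = 0.0509), whereas Tgfb1 and Efnb2 were.

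Of 13 inhibitors of vessel growth, all 13 had a kept probe, with a median of -0.01. Of these, 4 rose, 3 fell and 6 were not called, against 10.8% of all genes higher and 11.1% lower. With median centring 2 rose and 6 fell, against 1680 higher and 7452 lower of all 30577 kept probes. The angiostatic chemokine gene Cxcl10 stood at 1.63, 1.35 and 0.40 after 1, 2 and 4 h, with a mean of 1.13 and a slope of -0.61 (limma adjusted p = 0.0137 and 0.0353). It was well above background in 6 of 6 IL-1 channels but in 4 of 6 untreated channels, so its ratio is set against a signal near background. Processed signals gave a mean of 2.72 for Cxcl10, which was not called (limma adjusted p = 0.0619). The Cxcl10 slope was not called with processed signals, offset 16 or a trended and robust variance, which called 0 slopes over all probes. Col18a1, which encodes the precursor of endostatin, had a mean of 0.32, Thbs2 0.22 and Serpinf1 0.12 (limma adjusted p = 0.00729, 0.00616 and 0.0188), and Serpinf1 turned to -0.07 with median centring, where Thbs2 was at 0.07 and not called (limma adjusted p = 0.212). The protease gene Adamts1 had -0.88, Thbs1, which encodes thrombospondin-1, -0.40 and Sparc -0.09 (limma adjusted p = 0.000813, 0.000900 and 0.0390). The other Adamts1 probe was at -0.42 and the other Thbs1 probes were at -0.04. Adamts1 and Thbs1 stayed called with processed signals. Col18a1, Thbs2, Serpinf1 and Sparc did not (limma adjusted p = 0.0625, 0.0606, 0.115 and 0.118).

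**Figure D3:**
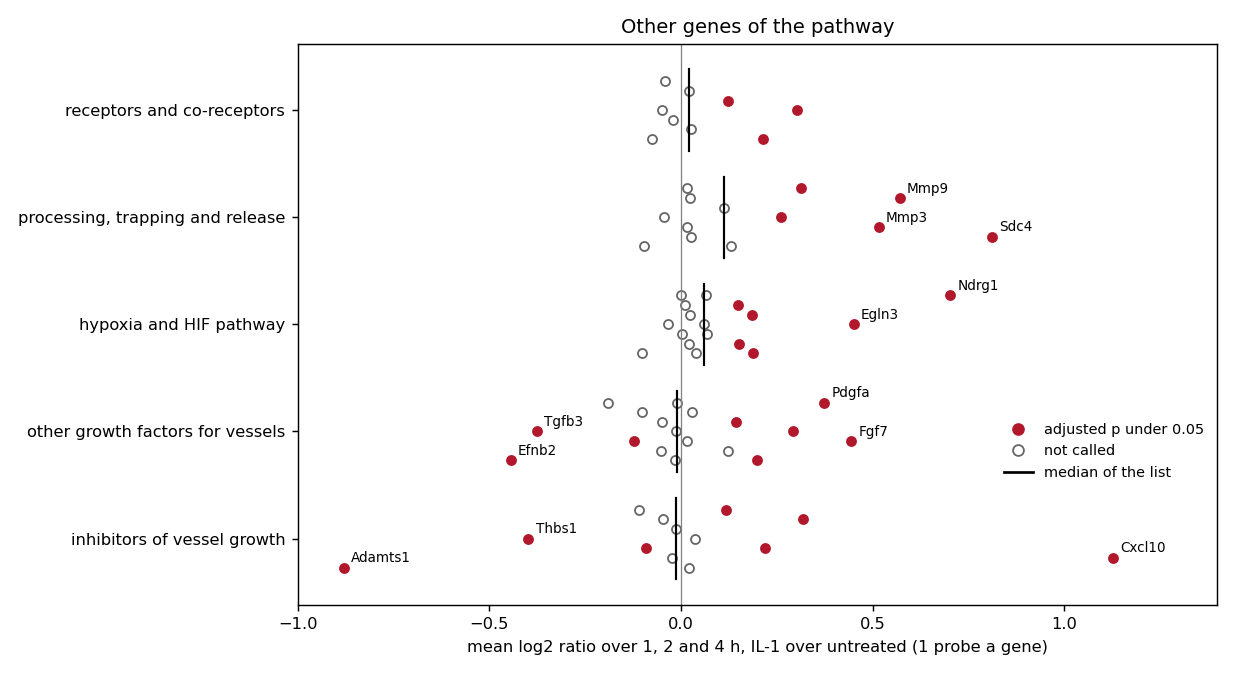
Mean log2 ratio over 1, 2 and 4 h, IL-1 over untreated (x axis), of 1 probe a gene in 5 lists (rows); filled points have a limma adjusted p under 0.05, open points do not, and vertical bars are list medians. Called values run from -0.88 for Adamts1 to 1.13 for Cxcl10, which was near background in untreated cells, and list medians lie between -0.01 and 0.11.

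Marker genes were read as a check of the labelled cell type. All 12 fibroblast markers had a kept probe, with mean log2 signals of 6.33 (Dpt) to 15.8, and Col1a1, Col1a2 and Vim were saturated on some arrays. Twist2 (1.26), Dcn (0.46) and Fbn1 (0.20) rose, and Col3a1 (-0.25) and Dpt (-0.12) fell. With processed signals only Twist2 and Col3a1 of these stayed called, and with median centring all but Fbn1 did. Of 7 endothelial markers 4 were kept, at 6.34 to 7.09, with Pecam1, Cdh5 and Tie1 not well above background; the 3 lymphatic endothelial markers were at 6.41 to 6.60. The median of the negative control spots on that scale was 5.89 and their 95th percentile 6.14. Kept markers of mural cells numbered 4 of 5, of keratinocytes 5 of 6, of leukocytes 6 of 7, of adipocytes 2 of 3 and of melanocytes 1 of 3. Over the whole array 30577 of 41174 probes were kept. Some of these were brighter than the dimmest fibroblast markers, up to 11.7 for the mural marker Cspg4 and 8.80 for the leukocyte marker Cd3e. Among all these non-fibroblast lists, Cspg4 (0.21) and the leukocyte marker Csf1r (0.13) rose and Krt10 (-0.20) and Fabp4 (-0.08) fell. Median centring left Cspg4 (0.05) and Csf1r (0.06) uncalled (limma adjusted p = 0.268 and 0.239), whereas Krt10 and Fabp4 stayed called. With processed signals only Krt10 of these genes stayed called. Other probes ran from 0.03 to 0.26 for Cspg4, -0.03 to 0.04 for Csf1r and -0.06 to 0.09 for Fabp4. The other Krt10 probe was at 0.04. The part of these non-fibroblast markers in the results was not tested.

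Genes whose ratios over the 6 arrays lay closest to those of a member were sought by the root mean square of the log2 difference. Members needed a called slope or a ratio at least 0.5 in size in both orientations at 1 or more times. Vegfa and Vegfc met this rule. Closest to Vegfa A_52_P638895 were Sash1 (0.129), the AP-1 member Fosl2 (0.153), Rffl (0.184), the hexokinase gene Hk2 (0.216) and a dim Icam1 probe (0.225), against a median of 0.815 over all probes considered. Fosl2 stood at 0.92, 0.62 and 0.38 after 1, 2 and 4 h and Hk2 at 0.76, 0.67 and 0.28. The likeness holds for single probes: the brighter Icam1 probe stood at 2.34, 2.44 and 1.83, and the dimmer Sash1 probe at 0.03, 0.07 and -0.01. Closest to Vegfc were Plscr1 (0.156), Ttc39c (0.207), Lrig1 (0.217), the nucleotide receptor gene P2ry2 (0.224) and Casp4 (0.253), against a median of 0.936. All 3 Plscr1 probes were alike, between 0.51 and 0.59 at 1 h and between 1.34 and 1.41 at 4 h. The 6 arrays share dyes, and whether 1 untreated extract served all of them is not stated. Since the median ratio of all probes was near 0, the medians of 0.815 and 0.936 mostly reflect the size of each member's own ratios. The lists are descriptions over 3 samples.

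**Figure D4:**
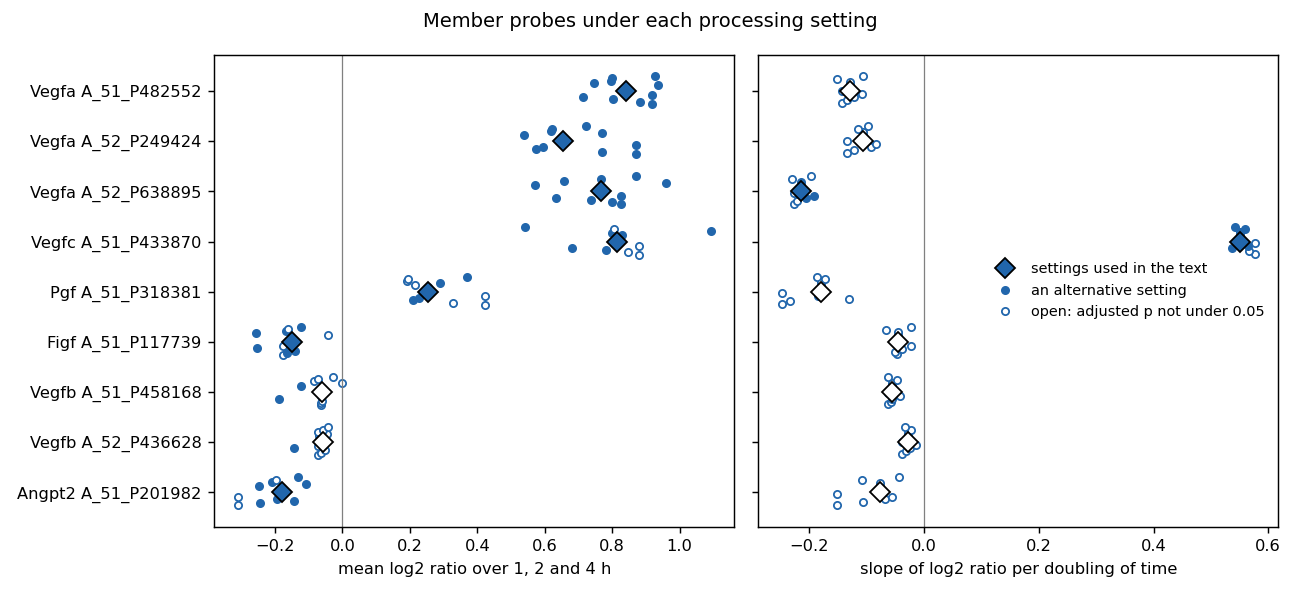
Mean log2 ratio over 1, 2 and 4 h (left) and slope per doubling of time (right), IL-1 over untreated, of the 9 kept probes (rows), with diamonds for the settings used in the text, circles for alternatives, and open symbols where the limma adjusted p was not under 0.05. The 3 Vegfa means are filled throughout, whereas the Vegfc slope keeps its size of 0.54 to 0.58 but is open in 4 of 11 alternatives.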

How the data were processed

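RNA of IL-1-treated and untreated fibroblasts was hybridised to 6 two-colour arrays, 2 per time point. Agilent Feature Extraction 7.5.1 quantified the spots, per the file headers, and the deposited intensity columns hold mean and local background brightness. Per the file headers, the software also subtracted background with spatial detrending and normalized the dyes (linear, then lowess) to give the processed intensity columns. The deposited value table is in log2 ratios, and a column matches the processed ratio of the other array of its time pair for 100% of spots within 0.001. Medians of its columns were -0.0260 and 0.0261 for 1 h, then -0.0309 and 0.0311 for 2 h, then -0.0325 and 0.0283 for 4 h, so no further centring was seen, and the direction rests on the labels.

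Of 43790 spots, 2256 controls were given weight 0. Mean signals were corrected by normexp (offset 50) and loess-normalized within arrays with limma 3.58.1 in R 4.3.3. Outlier flags were left out, saturated spots kept and spots of a probe averaged. Probes had to be well above background on every array of 1 or more of the 4 conditions (30634 of 41174), and 57 of these lacked a value on some array, leaving 30577. The flag is permissive, carried by up to 14.3% of 314 negative control spots in Cy3 on 1 array. RefSeq accessions named 22072 probes; others kept the files' names. Each dye-swap pair was averaged. The mean over time points and the slope on log2 time were fitted with lmFit and eBayes (two-sided tests), with Benjamini-Hochberg adjustment over all kept probes at 0.05, after a test on simulated data. Single times have 1 sample and were described by size (2-fold or more, a log2 ratio reaching 1 or -1 in both dye orientations). The number of arrays limits the precision.

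Deviations of same-numbered arrays correlated at 0.765 to 0.843 across probes. The number marks dye orientation per the labels. The correlation between both orientations of a time was 0.254 to 0.318 over all probes. The members and lists were chosen with earlier results of these data known. All member probes are named. From each list, read at the brightest kept probe of a gene, up to 4 called genes per direction with the largest means are named, except 1 gene that is not reported here; the uncalled genes named were chosen after their values were seen. The 5 genes closest to a member are named. The alternatives were other background corrections, normalizations, filters, probe choices and variance models, the value table, a replicate block, and leaving out an orientation or a time point.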

Additional observations from a re-analysis of the deposited data

Results flagged for a closer look

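2 results differed between time points by the slope test across the 3 samples. The Vegfc probe A_51_P433870 rose by 0.55 per doubling of time, with 0.26, 0.83 and 1.36 after 1, 2 and 4 h. The Vegfa probe A_52_P638895 fell by 0.21 per doubling of time, with 0.98, 0.76 and 0.55, while the other Vegfa probes, at -0.13 and -0.11, did not pass. Each test has 1 residual degree of freedom from the samples, so its SE rests largely on the spread that limma takes from all probes. Whether 1 untreated extract served all arrays is not stated.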

How the results depend on the processing

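No called member value turned its direction in any setting. Of uncalled values, the ratio of Figf at 1 h (0.0054) and of Pgf at 4 h (-0.014) turned without replicate 1, and that of Vegfb A_51_P458168 at 1 h (0.042) and 2 h (0.039) without replicate 2. With the scanner's processed signals, and equally with the deposited value table, 3 member probes rose and 0 fell in the mean, with 0 rising and 0 falling slopes; across all probes these settings called 1033 higher and 933 lower means, and 0 slopes in limma (2759 probes at an unadjusted p under 0.05). Offset 16 gave 3 higher means and 0 rising and 0 falling slopes (0 over all probes in limma, 2794 unadjusted). A trended and robust variance gave 0 rising and 0 falling slopes (0 over all probes, 3198 unadjusted). Median centring gave 4 lower means, against 7452 of all 30577 kept probes. It also gave 2 falling slopes and 0 probes 2-fold higher at 4 h, with 278 rising and 212 falling slopes over all probes. All member slopes had the same SE of 0.046 in that setting, so the spread of single probes did not enter. Without background correction 236 slopes rose and 283 fell over all probes. With 1 probe a gene 2 probes rose: Vegfa then has 1 probe, and Pgf was not called (limma adjusted p = 0.0598). Without the 2 h sample 3 rose and 0 fell, and over all probes 927 and 861. Without replicate 1 or 2, falling slopes numbered 0, probes 2-fold higher numbered 1 at 1 h and 0 to 1 at 2 h; over all probes 8 to 17 slopes rose and 13 to 30 fell, and 4538 to 6268 means rose. Single times also moved over all probes: 2-fold higher probes numbered 79, 91 and 69 at 1, 2 and 4 h with processed signals, and 25, 22 and 15 with median centring, against 52, 41 and 34. With the replicate number as a block, 5 member probes rose and 2 fell in the mean, 1 slope rose and 1 fell, and the Vegfc slope had limma adjusted p = 0.000202; the block changed no call on a member probe, and over all probes 164 slopes rose and 184 fell, against 60 and 74. The 3 Vegfa means were called in every setting run, between 0.54 and 0.96. Of the 70 genes on the 5 pathway lists, 29 were called; 22 of these were called with the same sign under median centring and 11 with processed signals. Of member tests, 28 calls were lost and 4 gained; the causes were not tested. A slide or scan block could not be fitted, since each array had a slide of its own. Signal over background limits Angpt1, and the Pgf and Angpt2 probes were dim.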
